A study of Mus musculus with 20 samples.

Results

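The annexins are proteins that bind acidic phospholipids when calcium is present, and their expression was examined in 20 kidney libraries of the Cre-less mouse model, which uses an adeno-associated virus (AAV). The genes were chosen by name in the count table, which gave Anxa1, Anxa2, Anxa3, Anxa4, Anxa5, Anxa6, Anxa7, Anxa8, Anxa11 and Anxa13, or 10 of 54532 genes. All mice were C57BL/6 animals of the genotype LSL-Cas9/+; Pax8 Cre/+, in which Pax8-expressing cells, among them renal tubule cells, remove a stop cassette and make Cas9 and GFP. An AAV with guides against Tsc1, Keap1, Pbrm1 and Vhl was injected into the kidney. Bulk RNA was sequenced from 10 tumors of 10 mice and from 10 normal kidneys, taken from those mice as well. The normal kidneys thus carried the same LSL-Cas9 and Pax8 Cre alleles. The sources used here do not give the age at collection, whether the normal kidneys had received virus, or which tumor and normal kidney came from the same mouse.

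Annexins share a folded core of repeats that binds calcium and docks on the inner face of membranes, and differ mostly in the N-terminal stretch before that core. The stretch of Anxa1 and Anxa2 is the place where S100 proteins bind, and it is long in Anxa7 and Anxa11. Members of the family are known for roles in membrane repair, vesicle traffic, inflammation, clotting and the handling of exposed phosphatidylserine. In the healthy kidney several annexins are expressed unevenly along the nephron.

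The first 15 codons of 5 members are shown because they hold the beginning of this variable stretch, with the start codon in capitals. They were read from the GENCODE vM21 transcripts (GRCm38).
Anxa1: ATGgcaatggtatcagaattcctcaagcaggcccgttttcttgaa
Anxa2: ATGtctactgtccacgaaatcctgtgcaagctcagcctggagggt
Anxa5: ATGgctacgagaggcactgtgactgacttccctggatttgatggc
Anxa7: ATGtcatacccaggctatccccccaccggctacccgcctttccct
Anxa11: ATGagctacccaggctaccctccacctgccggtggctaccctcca
The long-tailed members Anxa7 and Anxa11 have coding sequences of 1458 and 1512 bases. Anxa6, which joins a pair of annexin cores in 1 chain, has 2022 bases, while the other members with a coding model have between 960 and 1041. The longest identical run between the coding sequences of any of 36 pairs of 9 members was 18 bases, in Anxa2 with Anxa8 and in Anxa3 with Anxa11. Anxa13 is annotated as a processed transcript with 0 coding models in this release.

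In GRCm38 coordinates Anxa1 lies on the minus strand of chromosome 19 (20373428 to 20390944), and Anxa2 on the plus strand of chromosome 9 (69453620 to 69491795). Anxa3 is on chromosome 5 (96793339 to 96845966), Anxa4 on chromosome 6 (86736840 to 86793584) and Anxa5 on chromosome 3 (36448923 to 36475894). Anxa7 (20455260 to 20480133), Anxa11 (25842156 to 25886804) and Anxa8 (34085981 to 34100571) share chromosome 14. Anxa6 is on chromosome 11 (54979108 to 55033445) and Anxa13 on chromosome 15 (58341471 to 58389244). The genes that overlap a member had at most 60 counts over all libraries, so reads of a neighbor could add little to a member.

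Total counts ranged from 18447394 to 24902973 in tumors and from 14737516 to 26679704 in normal kidneys. Counts were scaled by the TMM method, and values are CPM, the counts relative to the scaled library size. Of 15354 genes tested, Vhl had a log2 difference of -0.49 and Tsc1 of -0.61 between tumors and normal kidneys, Keap1 rose by 0.83, and Pbrm1 had -0.28 with an adjusted p of 0.23, from the quasi-likelihood test of edgeR, Benjamini-Hochberg adjusted over all genes. Small insertions and deletions need not lower a transcript, so these levels do not measure editing. Markers of the thick ascending limb (4 of 4), distal convoluted tubule (3 of 3 tested), principal cells (5 of 5 tested) and intercalated cells (6 of 6) fell in tumors, and 6 of 8 macrophage markers rose. In bulk tissue, fewer cells of a type and less RNA per cell cannot be told apart. By the mean log2 CPM of 6 tubule injury genes (Havcr1, Lcn2, Krt20, Spp1, Clu and Timp1), normal kidneys 5, 7 and 8 lay 3.63, 4.87 and 2.70 above the median of the 10 normal kidneys, and the other 7 between -1.72 and 0.68. These 3 kidneys are no group of the labels and are shown apart below. The TMM factor of normal kidney 9 was 0.749 and those of the other normal kidneys were 1.03 to 1.14, and tumor 7 had the highest fibroblast, macrophage and neutrophil marker levels of all libraries.

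All 10 annexins passed the filter on low counts. In tumors 6 of them rose (Anxa1, Anxa2, Anxa3, Anxa4, Anxa5 and Anxa8), 3 fell (Anxa6, Anxa11 and Anxa13), and Anxa7 did not pass the test. Over all genes tested, 23.6% were higher and 23.8% lower in tumors by the same test, an adjusted p under 0.05. The median log2 fold change of the 10 annexins was 1.69, and that of all genes was -0.02. In 5 annexins (Anxa1, Anxa3, Anxa4, Anxa5 and Anxa8) the lowest tumor exceeded the highest normal kidney, which was so for 5.87% of all genes. In 0 annexins was every tumor below every normal kidney, against 4.74% of all genes.

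**Figure D1:**
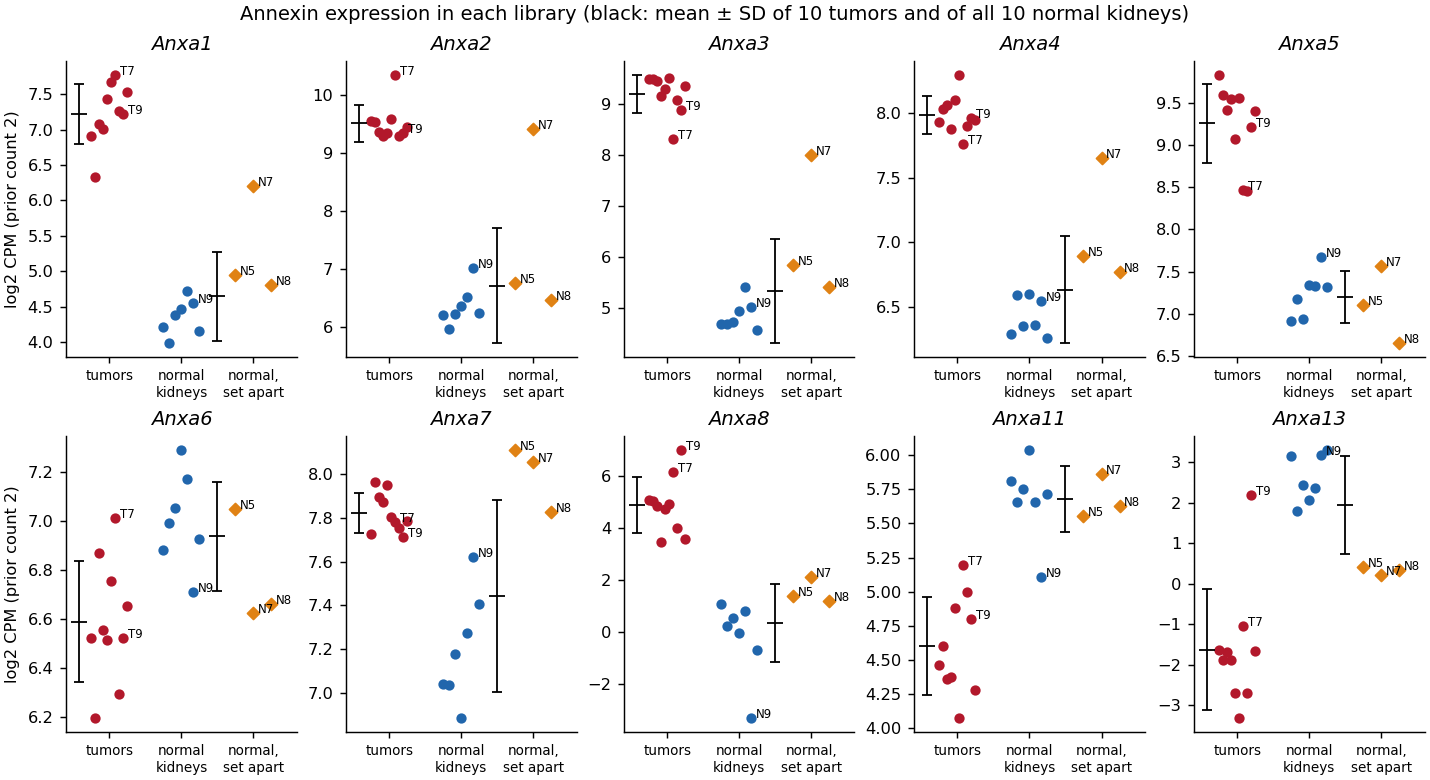
Expression of each annexin in the 10 tumors (red), the 7 other normal kidneys (blue) and the 3 normal kidneys set apart by injury genes (orange), as log2 CPM with a prior count of 2. Black bars give the mean ± SD of the 10 tumors and of all 10 normal kidneys, and letters with numbers name single libraries. Every tumor lies above every normal kidney in Anxa1, Anxa3, Anxa4, Anxa5 and Anxa8, and normal kidney 7 reaches tumor levels of Anxa2.

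Anxa2 and Anxa1 are annexins that bind S100 proteins. Anxa2 pairs with S100a10 at the cell surface and gathers plasminogen and its activator there. Its expression in tumors ranged from 627 CPM to 1313 CPM, with a median of 679 CPM. Normal kidneys ranged from 61.8 CPM to 684 CPM with a median of 85.1 CPM, and the kidney at 684 CPM was number 7, while the next highest was number 9 with 129 CPM. Because of kidney 7 alone the groups overlapped, and 5 of 10 tumors were above all normal kidneys. Anxa2 rose 5.11-fold in tumors (log2 fold change 2.35, SE 0.40; quasi-likelihood test of edgeR, Benjamini-Hochberg adjusted, adjusted p = 5.96e-05). Without normal kidney 7 the rise was 8.65-fold (log2 3.11, SE 0.17, adjusted p = 1.82e-11).

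Anxa1, a glucocorticoid-induced protein that dampens inflammation through formyl peptide receptors, was at 80.5 CPM to 219 CPM in tumors (median 150.5 CPM) and at 15.8 CPM to 73.8 CPM in normal kidneys (median 22.8 CPM). The groups did not overlap, although normal kidney 7, with 73.8 CPM, came near tumor 2, with 80.5 CPM. No other normal kidney exceeded 30.8 CPM. Anxa1 rose 5.57-fold (log2 2.48, SE 0.26, adjusted p = 8.18e-08, the same test). Macrophages also express Anxa1, and the summed level of the 8 macrophage markers was 358 CPM to 2284 CPM in tumors and 146 CPM to 644 CPM in normal kidneys; their part in the difference was not tested.

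Anxa3 and Anxa8 showed the largest fold increases. Anxa3, named in the study as a marker of a dedifferentiated proximal tubule state, ranged from 318 CPM to 726 CPM in tumors (median 641 CPM). In normal kidneys it ranged from 23.4 CPM to 254 CPM (median 31.3 CPM). Tumor 7 was the lowest tumor and normal kidney 7 the highest normal kidney, and these libraries, at 318 CPM and 254 CPM, came closest to each other. The next highest normal kidney, number 5, was at 57.2 CPM. Anxa3 rose 10.8-fold over all 20 libraries (log2 3.43, SE 0.42, adjusted p = 9.35e-07, the same test). Without normal kidney 7 it rose 17.8-fold (log2 4.16, SE 0.21, adjusted p = 5.38e-12).

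Anxa8, an anticoagulant annexin found in lining epithelia, was scarce in normal kidneys, at 0 CPM to 4.16 CPM (median 1.499 CPM). Normal kidney 9 had 0 counts, which allows up to 0.189 CPM for 3 counts by counting error alone. Tumors had 10.8 CPM to 129 CPM (median 29.1 CPM), and the lowest tumor, number 4, was above the highest normal kidney, number 7. Tumor 9 (129 CPM) and tumor 7 (71.1 CPM) were well above the other tumors, which ended at 33.5 CPM. Anxa8 rose 23.4-fold (log2 4.55, SE 0.56, adjusted p = 9.78e-07), and the log2 fold change was 4.13 without tumor 9. The same tumors, 7 and 9, had the highest summed levels of 6 urothelial markers among tumors, 132 CPM and 21.1 CPM, against 0.399 CPM to 2.10 CPM in the other tumors and 4.27 CPM to 46.0 CPM in normal kidneys. None of these markers passed the test in either direction, and their part in the level of Anxa8 was not tested.

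Anxa5 and Anxa4 also rose in tumors. Anxa5 coats exposed phosphatidylserine, which makes the protein a common probe of dying cells, and ranged from 351 CPM to 912 CPM in tumors (median 679 CPM) and from 101 CPM to 203 CPM in normal kidneys (median 152 CPM). The groups did not overlap. Tumors 8 and 7, at 351 CPM and 353 CPM, were well below the other tumors, of which the lowest had 535 CPM. Anxa5 rose 4.24-fold (log2 2.08, SE 0.18, adjusted p = 5.47e-09, the same test). Anxa4, an annexin of epithelial membranes, had 216 CPM to 314 CPM in tumors and 76.4 CPM to 201 CPM in normal kidneys, with medians of 248 CPM and 94.9 CPM. Here too tumor 7 was the lowest tumor and normal kidney 7 the highest normal kidney, and 119 CPM was the highest level in the other normal kidneys. The rise of Anxa4 was 2.46-fold (log2 1.30, SE 0.15, adjusted p = 4.68e-07).

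Anxa7, or synexin, is a long-tailed annexin that promotes the contact of granules in secretory cells. Its levels in tumors had the smallest SD of all members in log2 CPM, from 209 CPM to 249.9 CPM (median 222 CPM). Normal kidneys ranged from 118 CPM to 276 CPM (median 162 CPM), and the 3 highest were the kidneys set apart, numbers 5 (276 CPM), 7 (266 CPM) and 8 (227 CPM). Kidneys 5 and 7 were above every tumor, while the other 7 normal kidneys ended at 196 CPM, below every tumor. The log2 difference over all libraries was 0.32 (SE 0.15) and did not pass the test (adjusted p = 0.0768, quasi-likelihood test of edgeR, Benjamini-Hochberg adjusted). It passed in 6 of 29 other settings of the analysis, over which the adjusted p ranged from 1.55e-06 to 0.238.

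Anxa13, Anxa11 and Anxa6 were lower in tumors. Anxa13, an epithelial annexin best known from the intestine, was the rarest member in tumors. In normal kidneys it had 1.06 CPM to 9.79 CPM (median 4.58 CPM), and only Anxa8 was rarer there. Tumor 9 was at 4.45 CPM, with 109 counts, and the other 9 tumors were at 0 CPM to 0.384 CPM, of which tumor 6 had 0 counts (up to 0.161 CPM for 3 counts). Tumor 9 alone made the groups overlap. Over all libraries Anxa13 fell by 2.98 on the log2 scale (SE 0.76, adjusted p = 0.00285, quasi-likelihood test of edgeR, Benjamini-Hochberg adjusted), and without tumor 9 it fell by 4.79. The lowest normal kidneys were 7, 8 and 5, at 1.06 CPM, 1.17 CPM and 1.24 CPM, while the other 7 had at least 3.36 CPM. Principal and intercalated cell markers, which summed to at least 183 CPM and 153 CPM in every normal kidney, summed to at most 31.2 CPM and 10.9 CPM in tumors; their part in this difference was not tested.

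Anxa11, which has a long proline-rich tail and tethers RNA granules to lysosomes, had 16.7 CPM to 36.6 CPM in tumors (median 23.0 CPM) and 34.4 CPM to 65.8 CPM in normal kidneys (median 51.4 CPM). Tumor 7 was the highest tumor and normal kidney 9 the lowest normal kidney, and those libraries crossed, while the other 9 tumors were below all normal kidneys. Anxa11 fell by 1.06 on the log2 scale (SE 0.14, adjusted p = 2.14e-06, the same test). Anxa6, which organizes cholesterol-rich membranes and endosomes, had 73.1 CPM to 129 CPM in tumors (median 92.8 CPM) and 98.6 CPM to 156 CPM in normal kidneys (median 124 CPM). The groups overlapped, with 6 of 10 tumors below all normal kidneys and tumor 7 the highest tumor. It fell by 0.34 on the log2 scale (SE 0.11, adjusted p = 0.0154), the smallest change among the members that passed the test.

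Levels of different members were compared per length, as CPM per kilobase of the gene's annotated length. Anxa5 was the leading annexin on this scale in both groups, with 359 ± 102 in tumors and 84.6 ± 17.8 in normal kidneys (mean ± SD, n = 10 each, here and in the next paragraph). In tumors it was followed by Anxa2 (201 ± 54.8), Anxa3 (166 ± 36.6), Anxa1 (59.3 ± 15.9), Anxa4 (54.8 ± 5.77), Anxa7 (37.8 ± 2.42), Anxa6 (33.2 ± 5.75), Anxa8 (20.7 ± 19.1), Anxa11 (6.01 ± 1.53) and Anxa13 (0.440 ± 1.01). Anxa1 and Anxa4 were not separated in that order, since Anxa1 was higher in only 6 of 10 tumors. Differences between Anxa2 and Anxa3, Anxa7 and Anxa6, Anxa6 and Anxa8, and Anxa8 and Anxa11 were also smaller than the larger SD of the pair, although Anxa8 was above Anxa11 in 10 of 10 tumors.

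In normal kidneys the order was Anxa5, Anxa6 (42.2 ± 6.45), Anxa2 (39.3 ± 50.9), Anxa7 (30.3 ± 9.59), Anxa4 (22.2 ± 7.94), Anxa3 (15.3 ± 19.3), Anxa11 (12.5 ± 1.97), Anxa1 (10.6 ± 6.47), Anxa13 (3.62 ± 2.48) and Anxa8 (0.869 ± 0.627), again in CPM per kilobase. The means of Anxa2 and Anxa3 rest on kidney 7, as their SDs exceed their means. Anxa2 was above Anxa7 in 3 of 10 normal kidneys and Anxa3 above Anxa11 in 3 of 10. Neighbors from Anxa6 to Anxa1 in this order differed by less than the larger SD.

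Summed over the 10 members, tumors held 703 to 1101 CPM per kilobase (median 939.9) and normal kidneys 202 to 526 (median 237). Every tumor exceeded every normal kidney in this sum, of which normal kidney 7 had the highest normal value. As a share of the sum, Anxa2 averaged 21.7% in tumors and 12.4% in normal kidneys, and Anxa3 17.7% and 4.91%. Anxa6 averaged 3.58% of the sum in tumors and 17.5% in normal kidneys, while Anxa5 held 37.7% and 33.7%. In tumor 7 Anxa2 took the largest share, 39.3%, and Anxa5 only 22.2%. Normal kidney 7 was similar, with 34.9% from Anxa2 and 20.3% from Anxa5.

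**Figure D2:**
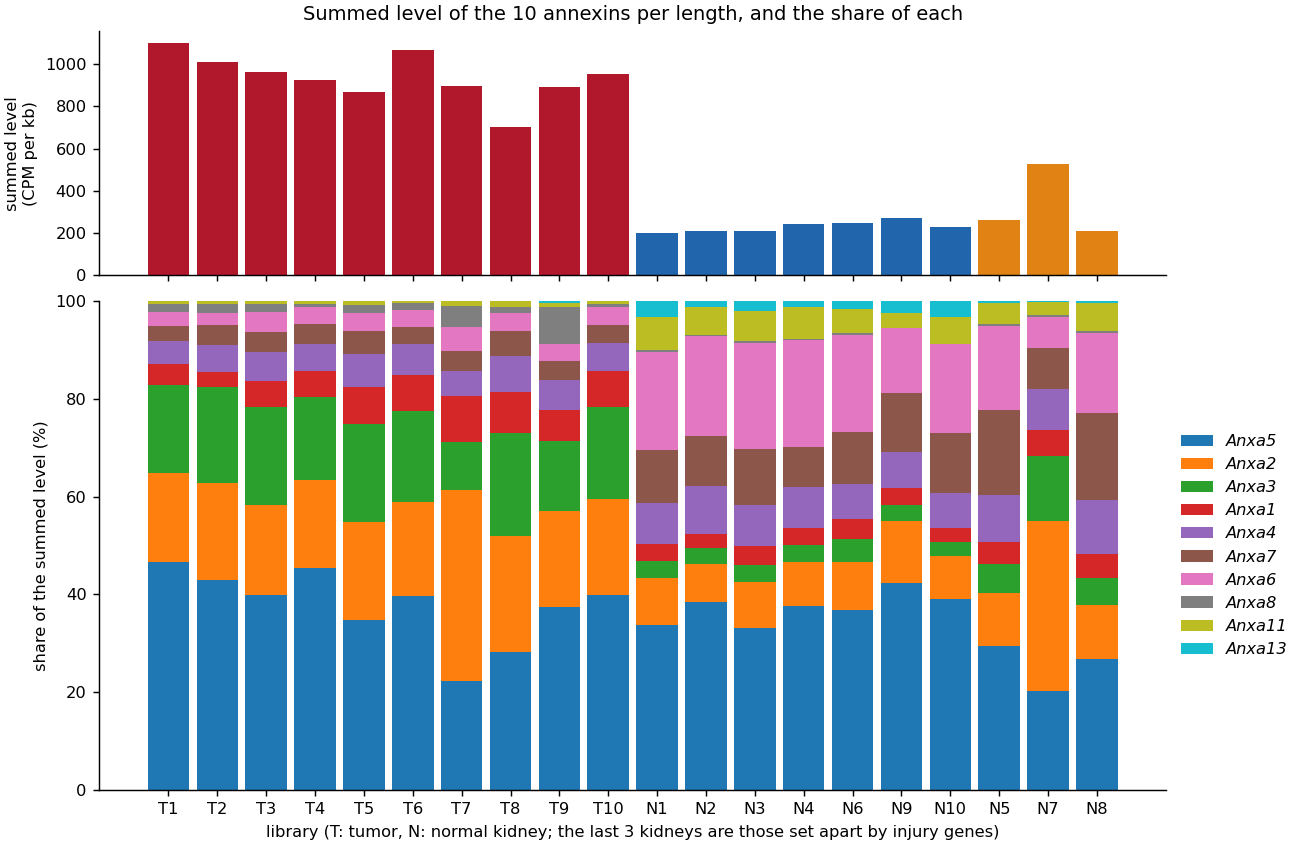
Summed level of the 10 annexins in CPM per kilobase of gene length (top) and the share of each member in that sum in percent (bottom) for each library. Tumors (T, red) hold 703 to 1101 CPM per kilobase, the normal kidneys (N) 202 to 526, and the 3 orange bars are the kidneys set apart by injury genes. Anxa2 takes the largest share in tumor 7 and normal kidney 7, and Anxa5 in the other libraries.

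Differences among the normal kidneys were described as log2 CPM minus the median of the 10 kidneys. Normal kidney 7 was 3.02 above the median in Anxa3, 3.01 in Anxa2, 1.69 in Anxa1, 1.42 in Anxa8 and 1.08 in Anxa4, and was the highest normal kidney in each of the 5. It was at 0.71 in Anxa7, 0.32 in Anxa5, 0.18 in Anxa11, -0.33 in Anxa6 and -2.01 in Anxa13. Thus its Anxa2 and Anxa3 were 8.04-fold and 8.09-fold the median kidney's, but its Anxa5 only 1.24-fold. Normal kidney 5 was raised less, by 0.87 in Anxa3, 0.77 in Anxa7, 0.73 in Anxa8 and 0.44 in Anxa1. Normal kidney 8 had 0.53 in Anxa8, 0.49 in Anxa7, 0.44 in Anxa3 and -0.60 in Anxa5, where it was the lowest of all kidneys.

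Anxa1, Anxa2, Anxa3, Anxa4, Anxa7 and Anxa8 were above the median in all 3 kidneys set apart, although Anxa2 in kidney 8 by only 0.05. The share of all genes above the median in these kidneys was not computed. Kidney 6, not set apart, was near kidney 8 in Anxa1 (0.21 and 0.29), Anxa2 (0.09 and 0.05) and Anxa3 (0.43 and 0.44). It was lower in Anxa4 (-0.21 and 0.20), Anxa7 (-0.07 and 0.49) and Anxa8 (0.15 and 0.53). Anxa13 was at -1.80, -2.01 and -1.87 in kidneys 5, 7 and 8, below every other kidney. Among the other 7 kidneys, number 9 was the highest in Anxa2 (0.59) and the lowest in Anxa11 (-0.58), and had no Anxa8 counts. The summed level of the 7 fibroblast markers was 1487 CPM in normal kidney 7 and at most 534 CPM in the other normal kidneys, and its part in the raised annexins was not tested.

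**Figure D3:**
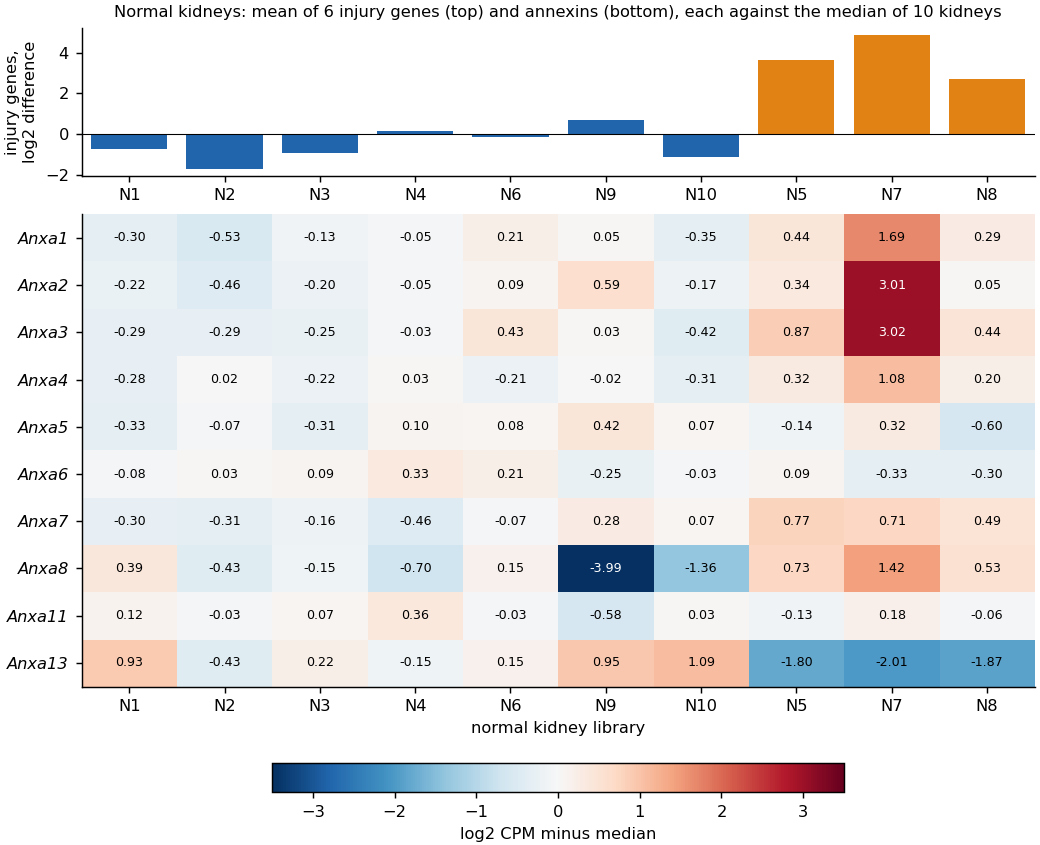
Mean log2 CPM of 6 tubule injury genes (top, bars) and log2 CPM of each annexin (bottom, colored cells with values) in the 10 normal kidneys, each minus its median over the 10 kidneys. Orange bars mark kidneys 5, 7 and 8. Kidney 7 is 3.01 and 3.02 above the median in Anxa2 and Anxa3, and Anxa13 is at -1.80 to -2.01 in the 3 kidneys.

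Without normal kidney 7, the number of annexins that rose was 7 (25.2% of all genes did) and of those that fell 3 (24.6%), since Anxa7 now passed (log2 0.40, adjusted p = 0.0226). With the 3 kidneys left out, 10 tumors were compared with 7 normal kidneys over 15834 genes. Here 7 annexins rose and the same 3 fell, against 26.6% and 25.5% of all genes. Anxa7 passed the test here as well, with a log2 fold change of 0.61 (SE 0.10, adjusted p = 6.96e-05, quasi-likelihood test of edgeR, Benjamini-Hochberg adjusted). Anxa3 rose 20.6-fold (log2 4.36, SE 0.20), Anxa2 9.01-fold (log2 3.17, SE 0.20) and Anxa8 36.6-fold (log2 5.20, SE 0.66). The log2 fold changes of Anxa5 (2.05), Anxa6 (-0.40) and Anxa11 (-1.05) differed from those over all kidneys by less than a standard error. Every tumor was then above every normal kidney in Anxa1, Anxa2, Anxa3, Anxa4, Anxa5, Anxa7 and Anxa8, and 12.2% of all genes did so. No annexin had every tumor below every normal kidney, which held for 10.5% of all genes.

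**Figure D4:**
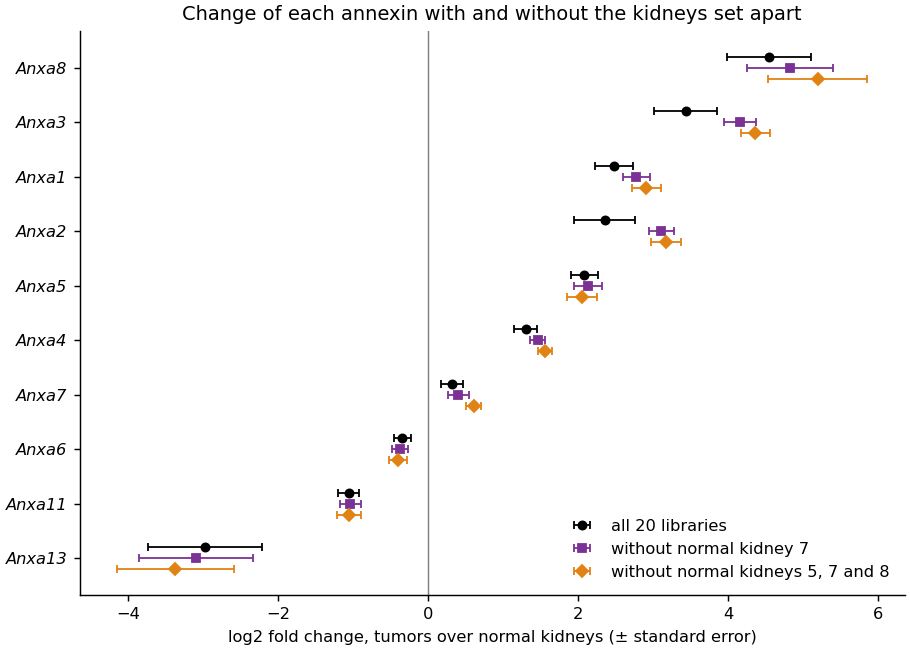
Log2 fold change of each annexin in tumors over normal kidneys with its standard error, from all 20 libraries (black), without normal kidney 7 (purple) and without normal kidneys 5, 7 and 8 (orange). Anxa2 goes from 2.35 to 3.11 and Anxa3 from 3.43 to 4.16 when kidney 7 is left out, and Anxa5, Anxa6 and Anxa11 hardly move.

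Among the tumors, number 7 departed from the tumor median in several members at once. Its Anxa2 was 0.95 above the median on the log2 scale, its Anxa8 1.29, its Anxa11 0.67, its Anxa1 0.54 and its Anxa6 0.47, while its Anxa3 was at -1.01 and its Anxa5 at -0.94. It was the highest tumor in Anxa1, Anxa2, Anxa6 and Anxa11 and the lowest in Anxa3 and Anxa4. Its summed fibroblast markers reached 8035 CPM, against 135 CPM to 607 CPM in the other tumors, and its neutrophil markers 415 CPM against at most 27.1 CPM. By the mean of the injury genes, tumor 7 lay 3.51 above the median of the normal kidneys, and the other tumors at most 1.46. Its proximal tubule markers summed to 973 CPM, against at least 2997 CPM in the other tumors. The injury genes did not share a direction in tumors. Havcr1, Krt20 and Spp1 in every tumor were above the normal kidneys not set apart. Clu, at most 240 CPM in tumors, was at least 306 CPM in normal kidneys, and Lcn2 and Timp1 overlapped. The part of those cells or of injury in the annexins of tumor 7 was not tested. Tumor 9 was 3.97 above the median in Anxa13 and 2.14 in Anxa8, and its next largest departure was -0.45 in Anxa3. Tumor 8 was at -0.95 in Anxa5 and -0.86 in Anxa8.

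After each library was set against the mean of its group, members were compared over the 20 libraries by Pearson's r. Anxa3 and Anxa4 varied together most closely (r = 0.91), followed by Anxa1 and Anxa2 (0.81), Anxa2 and Anxa3 (0.78) and Anxa2 and Anxa4 (0.76). Much of this came from tumor 7 and normal kidney 7, since r without them was 0.67, 0.40, 0.64 and 0.42 over 18 libraries. Anxa5 reached at most 0.39, with Anxa3, and Anxa6 at most 0.15, with Anxa13. Of the protein-coding genes tested outside the family, Metap1 (r = 0.94) varied most like Anxa3, Pitpna (0.92) like Anxa2, Bag2 (0.92) like Anxa4, Gnl3 (0.91) like Anxa7 and Capza1 (0.91) like Anxa1. For the other members the closest were Il2rb to Anxa13 (0.89), Rbfox2 to Anxa8 (0.87), Srpk1 to Anxa5 (0.84), Nacad to Anxa6 (0.83) and Trp53bp2 to Anxa11 (0.82). Without tumor 7 and normal kidney 7, r was 0.80 for Metap1, 0.73 for Pitpna, 0.82 for Bag2, 0.92 for Gnl3 and 0.76 for Capza1. These values describe the libraries, in which all genes share the depth and scaling.

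Partner genes of the annexins were taken from 5 lists of 49 genes, of which 40 were tested. Of these 15 rose and 4 fell, beside 23.6% and 23.8% of all genes. Scaled by library totals instead, 12 rose and 6 fell, and no share of all genes was computed for that scaling. In the list of S100 and EF-hand partners, 2 of 7 tested genes rose and 1 fell, close to those shares of all genes, with a median log2 fold change of 0.41. In Anxa2 and in its partner S100a10, tumor 7 and normal kidney 7 were the highest of their groups. Unlike Anxa2, S100a10 did not pass the test over all libraries. It ranged from 220.1 CPM to 283 CPM in tumors and from 71.7 CPM to 362 CPM in normal kidneys, and the 4 highest normal kidneys were number 7 (362 CPM), number 9 (331 CPM), number 5 (255 CPM) and number 8 (168 CPM). The other 6 were at 103 CPM or less, below every tumor. Its log2 difference was 0.62 (SE 0.28, adjusted p = 0.076) over all libraries and 1.05 (SE 0.27, adjusted p = 0.00291) without kidneys 5, 7 and 8, by quasi-likelihood test of edgeR, Benjamini-Hochberg adjusted.

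S100a11, which binds Anxa1, had 126 CPM to 389.7 CPM in tumors and 64.6 CPM to 383 CPM in normal kidneys, and tumor 7 and normal kidney 7 were the highest of their groups. Its log2 difference was 0.41 (SE 0.32, adjusted p = 0.306) over all libraries and 0.90 (adjusted p = 0.0197) without the 3 kidneys. S100a6, a partner of several annexins, rose by 1.92 on the log2 scale (adjusted p = 0.000172), from a median of 30.3 CPM to 178 CPM. S100b, a calcium sensor best known from glia, was at 7.21 CPM to 96.0 CPM in tumors and at most 1.32 CPM in normal kidneys, and rose by 6.95 (adjusted p = 5.48e-09). Each normal kidney held only 0 to 23 counts of S100b, so the size of this rise is uncertain. Sorcin, encoded by Sri, is a partner of Anxa7 and fell by 0.33 on the log2 scale (adjusted p = 0.00915). S100a4 had 0 or 1 count in each tumor and at most 2 in each normal kidney, also in tumor 7 with its high fibroblast markers, so its row may not reflect its expression, and it was not tested.

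Of the plasminogen system around Anxa2 and S100a10, 1 of 6 tested genes rose and 1 fell, near the 23.6% and 23.8% of all genes, and the median was -0.16. Ahnak, a scaffold held at the membrane by Anxa2 and S100a10, rose by 0.80 with every tumor above every normal kidney (adjusted p = 0.00151, the same test). Serpinf2, the inhibitor of plasmin, fell by 1.63 on the log2 scale (adjusted p = 0.00251). The activators themselves had differences of -0.01 (Plat, adjusted p = 0.984) and -0.30 (Plau, adjusted p = 0.452), and the receptor Plaur had 0.44 (adjusted p = 0.504). Plg was not expressed at a testable level.

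Membrane repair and endosomal partners gave 6 of 10 tested genes that rose and 0 that fell, beside 23.6% and 23.8% of all genes, with a median of 0.42. Capn1, a calcium-activated protease, rose by 1.60 (SE 0.13, adjusted p = 1.97e-09), from 33.7 CPM to 76.3 CPM in normal kidneys to 106 CPM to 183 CPM in tumors, without overlap. Myof, a ferlin of membrane fusion and repair, rose by 1.37 (adjusted p = 0.000885), and its relative Dysf, which binds Anxa1 and Anxa2, by 0.50 (adjusted p = 0.0162). Capn2 rose by 0.83, with normal kidney 7 (227 CPM) above 8 of 10 tumors. Pdcd6ip (Alix) rose by 0.64 and Vps4b by 0.33. Tsg101 (0.09) and Vps4a (0.09) did not pass the test. Hgs had at most 3 counts in a library, was not tested, and is listed under more than 1 gene identifier, so its row may not reflect its expression.

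Among 5 tested genes of Anxa1 receptors and arachidonate release, 2 rose and 1 fell, with a median of 0.52, while 23.6% of all genes rose and 23.8% fell. Pla2g4a, the phospholipase that Anxa1 is known to restrain, had 31.8 CPM to 67.3 CPM in tumors and 8.95 CPM to 17.4 CPM in normal kidneys, and rose by 2.12 (SE 0.15, adjusted p = 4.43e-10, the same test). Alox5 rose by 2.20 (adjusted p = 0.00412), with 22.8 CPM in tumor 7 and at most 3.36 CPM in the other tumors. Alox5 is a gene of myeloid cells, whose neutrophil and macrophage markers were also highest in tumor 7; their part was not tested. Ptgs1 fell by 1.62 on the log2 scale (adjusted p = 0.000104) and Ptgs2 had a difference of 0.36 (adjusted p = 0.634). The formyl peptide receptors Fpr1 and Fpr2 did not pass the filter on low counts.

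Genes of phosphatidylserine exposure and uptake, the lipid bound by Anxa5, included 4 of 12 that rose and 1 that fell, with a median of 0.08, and the shares of all genes were 23.6% and 23.8%. Mfge8, a secreted bridge between phosphatidylserine and phagocytes, was at 567 CPM to 1804 CPM in tumors and 89.2 CPM to 284 CPM in normal kidneys. It rose by 3.24 (SE 0.23, adjusted p = 3.84e-10, the same test), and tumor 7 and normal kidney 7 came closest to each other, as in Anxa3 and Anxa4. The receptor kinase Axl rose by 2.16 (adjusted p = 2.07e-07) without overlap, its relative Tyro3 fell by 1.80 on the log2 scale (adjusted p = 0.000976), and the third, Mertk, had -0.03 (adjusted p = 0.926). The scavenger receptor Stab1 rose by 1.52 and Tmem30a, a flippase subunit, by 0.45. The scramblases Ano6 (0.11) and Xkr8 (0.04) did not pass the test.

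**Figure D5:**
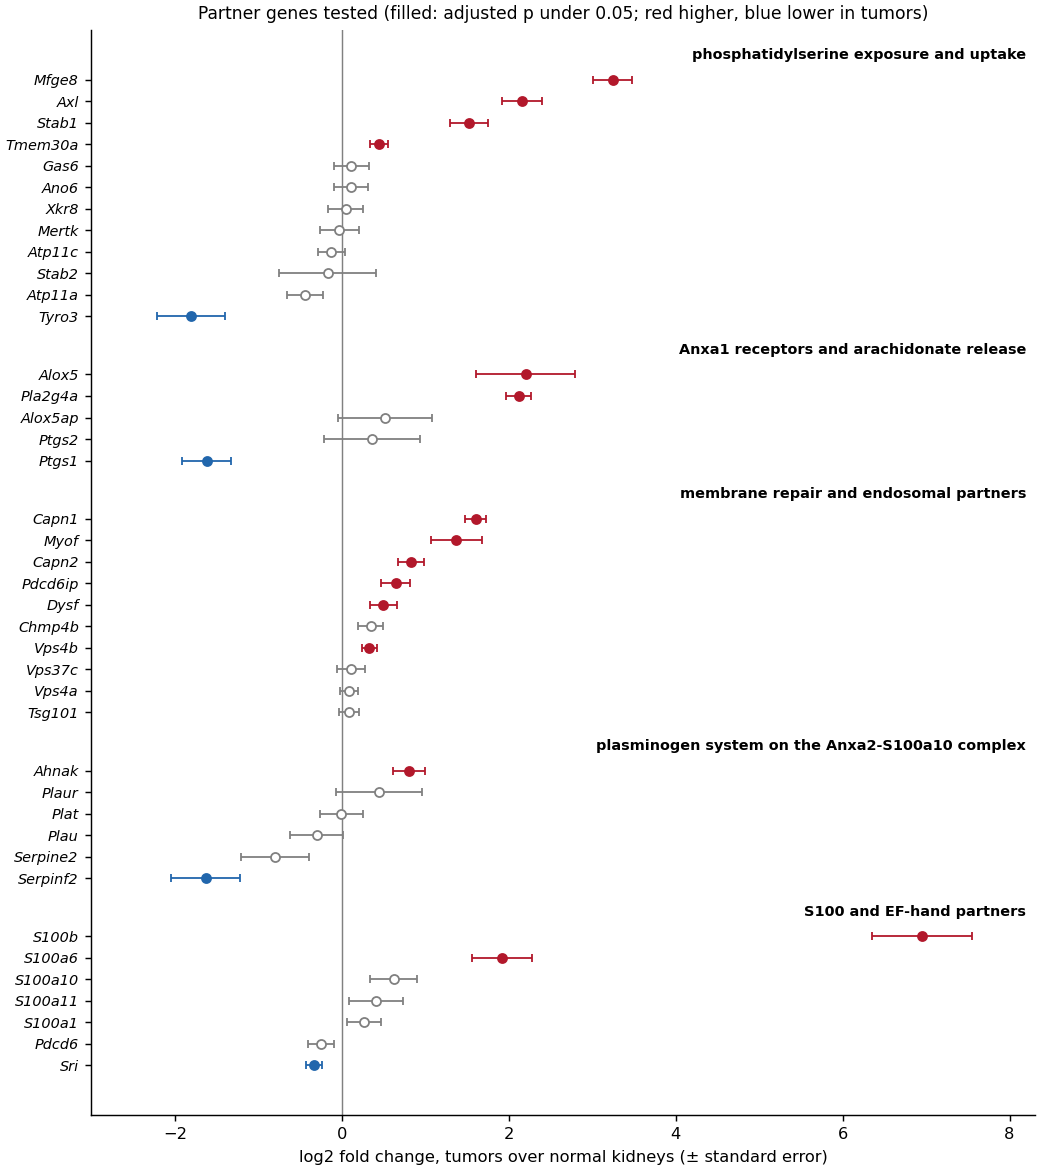
Log2 fold change in tumors over normal kidneys, with its standard error, for the 40 tested partner genes by list. Filled points have an adjusted p under 0.05 (red higher, blue lower in tumors) and open points do not. S100b at 6.95 and Mfge8 at 3.24 are the highest of their lists, and S100a10 at 0.62 is open.

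Promoter sequence was read because Vhl and Keap1 were edited in these mice, genes whose products restrain hypoxia-inducible and antioxidant transcription factors. In windows of 250 bases before the RefSeq start (GRCm38.p6), 7 of 10 members had at least 1 window, and 9 windows in all were searched on both strands. The hypoxia response element core ACGTG was searched, with the antioxidant response element core TGACNNNGC and the AP-1 motif TGANTCA. Across 32851 windows of all genes, 16.6%, 10.2% and 6.75% held these letters. The following stretches hold the matches of members that rose, printed 5′ to 3′ on the strand of the gene, with the match in capitals.
Anxa2, hypoxia core on the opposite strand, chr9:69453526-69453570: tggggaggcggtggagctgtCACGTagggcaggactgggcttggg
Anxa2, AP-1, chr9:69453568-69453614: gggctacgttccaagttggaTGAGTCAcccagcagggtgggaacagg
Anxa4, antioxidant core on the opposite strand, chr6:86793736-86793784: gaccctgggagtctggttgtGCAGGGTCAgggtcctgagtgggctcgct
Anxa5, hypoxia core, chr3:36475888-36475926: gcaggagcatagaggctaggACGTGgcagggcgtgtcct
Anxa7, which did not pass the test over all libraries, held an overlapping match of the hypoxia core on both strands in 1 of its windows. Windows of Anxa1, Anxa8 and Anxa11 held none of the motifs. Matches are letters in these windows, and no binding was measured.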

How the data were processed

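RNA of 10 tumors and 10 normal kidneys was extracted with Trizol and sequenced as poly A libraries by a company. The authors deposited raw read counts per gene, without normalization, and analyzed them on the NIDAP platform. The submitters' processing notes name the build mm10; the aligner, the counter and the use of strand are not given in the sources used here. The table held 0 rows that name no gene and 0 unused columns of per-sample values.

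Conditions and replicate numbers came from the sample labels. Counts were scaled by TMM and filtered at a count minimum of 10 (edgeR 4.0.16, R 4.3.3), leaving 15354 genes. The comparison of tumors with normal kidneys used the quasi-likelihood test of edgeR over all 20 libraries without covariates, with Benjamini-Hochberg adjustment over all genes tested and a threshold of 0.05. Log2 CPM used a prior count of 2. A normal kidney was set apart where the mean of the injury genes was over 1 above the median kidney's on the log2 scale. Alternatives used DESeq2 1.42.0, limma 3.58.1 (voom with quality weights), other scalings, no filter, replicate blocks and left-out libraries. Scripts were first tested on simulated counts.

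Named genes were the 10 annexins, Anxa9 and Anxa10 by counts, the partner lists by counts with values for up to 3 called genes of the largest change in each, S100a10 and S100a11, and the 2 genes most like each member by r. The values of other partner genes were chosen for the text after they were seen, and targeted genes and marker lists were given for context. Of the planned lists, 1 gene is not reported here and is in no count. Members and lists were chosen with earlier results of these data known. No library was present more than once: over 90 pairs of libraries of a group, chi-square per degree of freedom was at least 14.2. Intervals and bounds cover counting error only, and p-values measure the spread between these libraries.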

Additional observations from a re-analysis of the deposited data

Results flagged for a closer look

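Single libraries stood far from the rest of their group of 10 in 18 of 52 groups of values checked. The groups share the same libraries and are not independent, and the check was not run over all genes. No rate by chance can therefore be set beside this count. The check compares a library's gap to its nearest neighbor with the range of the group, both in log2 CPM, and the levels below are in CPM. Normal kidney 7 was the highest normal kidney in Anxa1 (73.8 CPM), Anxa2 (684 CPM), Anxa3 (254 CPM) and Anxa4 (201 CPM), and in the partner genes S100a6 (181 CPM), Capn1 (76.3 CPM), Capn2 (227 CPM) and Mfge8 (284 CPM). Tumor 7 was the highest tumor in Anxa2 (1310 CPM) and Alox5 (22.8 CPM) and the lowest in Anxa3 (318 CPM) and Mfge8 (567 CPM). Normal kidney 9 was the lowest normal kidney in Anxa8 (0 CPM), Anxa11 (34.4 CPM), Ahnak (52.1 CPM) and Tyro3 (1.76 CPM), and the highest in Sri (178 CPM). Tumor 9 was the highest tumor in Anxa13 (4.45 CPM).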

How the results depend on the processing

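Under 455 combinations of a result and an alternative, 444 kept their direction and their side of the threshold or their size, and 0 reversed. The size of a count was held as kept within a tolerance, and a count could not be labeled reversed. Levels per length were held as kept within their SD. Most combinations left out a single library, so the alternatives share most of their data. Without kidneys 5, 7 and 8, 22 partner genes rose and 5 fell, which was still within the tolerance for counts, beside 26.6% and 25.5% of all genes. The count of partner genes that rose was 15, but 24 by limma-voom with quality weights and 25 without kidneys 5, 7 and 8, normal kidney 9 and tumor 7, an alternative chosen after seeing the data; of those that fell it was 4, but 7 by limma-voom. Library totals gave 12 that rose and 6 that fell. Annexins without overlap were 5, and 9 in that chosen alternative. Genes with every tumor above every normal kidney went from 5.87% to 12.2% of all genes when kidneys 5, 7 and 8 were left out. No share of all genes was computed for limma-voom, library totals, the replicate block, the chosen alternative, or single left-out libraries other than kidney 7. With a margin of 0.5 in place of 1 the injury genes set 4 kidneys apart instead of 3, adding number 9. Leaving out each library in turn gave 6 to 7 annexins that rose, 3 that fell in every case, 5 to 6 without overlap, and 15 to 19 partner genes that rose and 4 to 5 that fell.

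Anxa7 was called by limma-voom (0.65), without normal kidney 5 (0.41) or 7 (0.40), without the 3 kidneys (0.61), in the alternative chosen later (0.67) and with the replicate number as a block (0.38), and the other 9 annexins kept their call in all 29 alternatives. Scaling by library totals moved the median over all genes from -0.02 to -0.14 on the log2 scale. Tumors and normal kidneys share the numbers 1 to 10, and the tissue came from 10 mice, but the labels do not say that a number marks a mouse. The correlation of deviations exceeded 0.1 in 9 of 10 same-numbered pairs (from -0.14 to 0.38) and 8 of 10 tumors correlated best with their own number, a hint of pairing from the data; as it was not above 0.1 in every pair, the block was kept as an alternative. With the replicate block 7 annexins rose, 3 fell, 19 partner genes rose and 5 fell, and the log2 fold changes of Anxa2, Anxa3 and Anxa13 were 2.83, 3.99 and -4.06. Low counts limit Anxa13 in tumors (0 to 9 counts, except 109 in tumor 9). They also limit Anxa8 (0 to 114 counts) and S100b (0 to 23 counts) in normal kidneys.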

Other observations

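The count table holds 2 other annexin genes, Anxa9 and Anxa10. Anxa9 had 28 to 98 counts in tumors and 21 to 99 in normal kidneys, and a log2 difference of -0.18 (SE 0.26; quasi-likelihood test of edgeR, Benjamini-Hochberg adjusted, adjusted p = 0.593). It overlaps Mindy1 on the opposite strand, which held 63610 counts, so its own reads are uncertain where strand was not used. Anxa10 had 2 counts, both in tumor 7, and was not tested. The antisense gene Anxa11os had 53 counts over all libraries.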
